A study of Mus musculus with 24 samples.

Results

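The 12 libraries described here, of 24 in the study, ask what interleukin-18 adds to a co-culture that already holds tumour antigen. All 6 libraries with antigen and IL-18 were set against all 6 with antigen alone, with genotype as a covariate, so that 3 WT and 3 knockout libraries stood on each side. Membership followed the sample titles and no measured value. Every culture combined bone-marrow-derived macrophages, WT or Tmem175-/-, with spleen lymphocytes taken from mice with B16-F10-OVA tumours; B16-F10 is a melanoma line of the mouse, here engineered to make ovalbumin. All 12 received B16-F10-OVA tumour cell antigen, and IL-18 was added at 500 pg/ml to 6 of them. The 6 cultures given antigen and IL-1β at 500 pg/ml served as the closest comparison. Polyadenylated RNA was counted per gene. The labels do not give the lymphocytes' genotype, the time of exposure, or whether the 3 replicates of a group came from different animals, cell preparations or culture wells. Accordingly, every p-value refers to the scatter among these particular samples, which may be technical. In 11 of the study's 12 knockout samples the label for genotype gives a different gene, whereas the titles name Tmem175 throughout.

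IL-18 is a cytokine of the IL-1 family that macrophages make as a precursor and release once it is cut by an inflammasome protease. It binds a receptor made of Il18r1 and the accessory chain Il18rap and signals through Myd88, the Irak kinases and Traf6 to NF-kB, while the secreted Il18bp neutralises it. Its best known action is to make T cells and natural killer cells release interferon gamma together with IL-12, and the receptor is found mainly on those lymphocytes.

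The 12 libraries held 17744540 to 24636821 counts each, and 13588 of 55487 listed genes had enough counts to be tested. Tmem175 itself, which encodes a lysosomal ion channel, stood at 12.8 to 16.3 CPM (normalised read counts scaled to library size) in the 6 WT libraries and at 7.61 to 8.80 CPM in the 6 knockout libraries. Macrophage RNA dominated. Per kilobase of the longest transcript, the macrophage gene Adgre1 averaged 1421 CPM and Csf1r, the M-CSF receptor, 337 CPM, against 0.526 for the T cell gene Cd3e and 1.77 for Trac, the T cell receptor alpha constant region. The natural killer cell genes Ncr1 and Klrb1c had 112 and 49 counts in all 12 libraries together and were too rare to be tested. Of 7 melanoma markers only Mitf, which macrophages also express, could be tested. No marker of the cell type lists was at 0 in all 12 libraries. In such mixed cultures fewer cells of a type and less RNA per cell cannot be told apart.

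A single gene passed the test when IL-18 was added. Neat1, a long non-coding RNA that builds the nuclear bodies called paraspeckles, rose in the comparison of 6 with 6. In WT cultures it stood at 449.8, 481 and 466 CPM with antigen and at 558, 568 and 561 CPM with antigen and IL-18. In knockout cultures the values were 394, 413 and 429 CPM without IL-18 and 466, 476 and 467 CPM with it. Within each genotype all 3 libraries with IL-18 lay above all 3 without. The group means were 466 ± 15.7 and 563 ± 4.98 CPM in WT and 412 ± 17.4 and 469.9 ± 5.21 CPM in knockout (SD, n = 3). The pooled log2 fold change was 0.23 ± 0.0273 (SE; 95% interval 0.17 to 0.29), 1.17-fold, with an adjusted p of 0.000688 by edgeR's quasi-likelihood test with Benjamini-Hochberg adjustment over all tested genes. Neat1 was thus 1 of 13588 genes called, 0.00736%, and no gene was called lower. It kept its call in all 20 alternative analyses, where its adjusted p ran from 3.73e-12 to 0.0325.

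By genotype the Neat1 difference was 0.27 ± 0.0367 in WT (adjusted p 0.00606, edgeR) and 0.19 ± 0.0368 in knockout (adjusted p 0.0755, edgeR). The difference between those values, knockout minus WT, was -0.08 with a 95% interval of -0.20 to 0.04. The WT call depended on single libraries: its adjusted p became 0.0691 without WT antigen replicate 1, 0.0756 without WT antigen replicate 3 and 0.0539 without WT antigen plus IL-18 replicate 2. It was 0.494 when all 24 libraries were fitted together and 0.664 after a trend with transcript length was removed. On the scale of all 24 libraries Neat1 stood at 508, 498 and 513 CPM in WT and at 445, 489 and 449 CPM in knockout cultures given IL-1β. Against these, the IL-18 libraries were higher by 0.09 on the log2 scale (95% interval 0.03 to 0.16), which did not pass the threshold (adjusted p 0.0985, edgeR). The IL-1β libraries also lay above all libraries with antigen alone, which ran from 449 to 481 CPM in WT and 396 to 429 CPM in knockout on this scale. Without antigen Neat1 stood at 334 to 417 CPM in WT and 416 to 460 CPM in knockout.

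**Figure D1:**
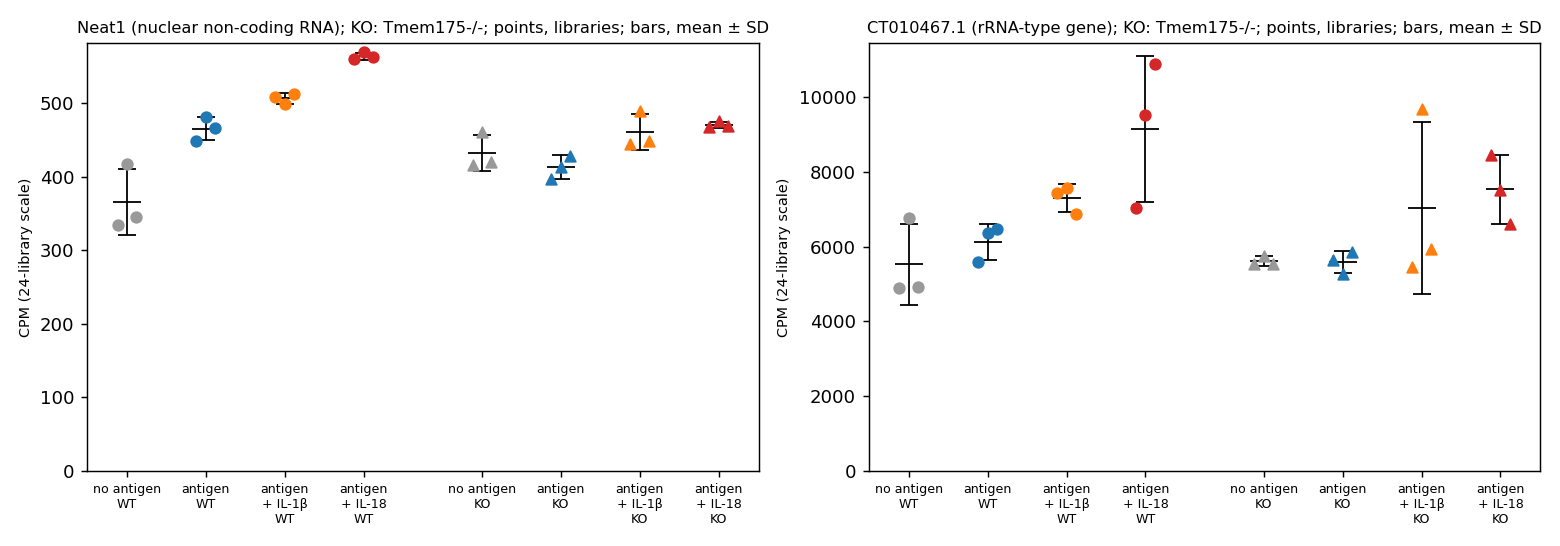
CPM, on the scale of all 24 libraries, of Neat1 (left) and of the rRNA-type gene CT010467.1 (right) in each library, by genotype and condition; points are libraries and black bars the mean ± SD of 3. For both genes the libraries with antigen and IL-18 lie above those with antigen alone within each genotype.

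A second RNA moved with the groups in the same way without passing the threshold. CT010467.1, a gene annotated as ribosomal RNA, stood at 5595, 6361 and 6466 CPM in WT antigen libraries and at 7014, 9516 and 10881 CPM with IL-18. In knockout cultures it stood at 5620.2, 5269 and 5861 CPM without IL-18 and at 8435, 7537 and 6587 CPM with it. Every library with IL-18 was above every library without, in either genotype. The pooled difference was 0.50 on the log2 scale (adjusted p 0.267 by edgeR and 0.00893 by DESeq2's Wald test). All 354 genes annotated as ribosomal RNA together took 0.557 to 0.646% of counts in WT antigen libraries and 0.707 to 1.09% with IL-18, and 0.525 to 0.585% and 0.660 to 0.843% in knockout. Libraries were made by poly(A) selection, and the 6 libraries with IL-1β ran from 0.546 to 0.954%. The part of ribosomal RNA content in the Neat1 difference was not tested.

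Most transcripts were held to a narrow range by these data. Of the 9995 genes averaging 2 log2 CPM or more, 87.2% had a 95% interval of the IL-18 difference that lay wholly within 1.2-fold in either direction, and 99.5% within 1.5-fold. Over all 13588 genes the shares were 64.4% within 1.2-fold and 86.2% within 1.5-fold. The median standard error was 0.0573 on the log2 scale. The variation between replicates estimated by edgeR was 4.80%, which may be technical. At an unadjusted p under 0.05 there were 515 higher (3.79%) and 675 lower genes (4.97%), together 8.76% of those tested. Genes whose libraries with and without IL-18 did not overlap in either genotype numbered 73 higher (0.537%) and 105 lower (0.773%).

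**Figure D2:**
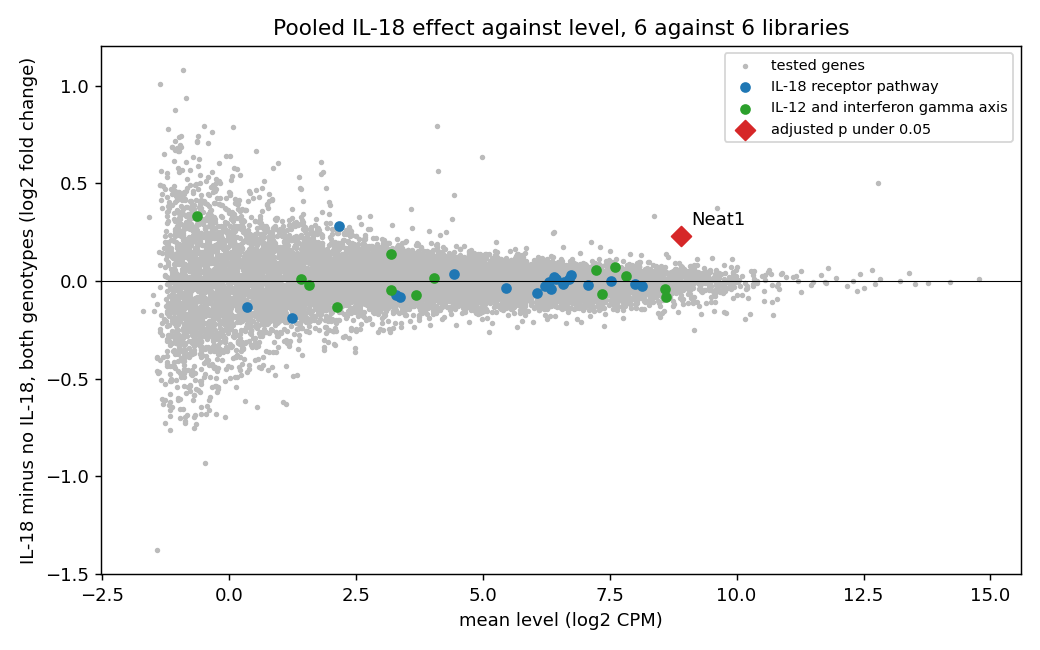
Mean level (log2 CPM, horizontal) and pooled IL-18 difference (log2 fold change, vertical) of the 13588 tested genes, with the IL-18 receptor pathway in blue, the IL-12 and interferon gamma axis in green and the gene with an adjusted p under 0.05 as a red diamond. Neat1 stands at 0.23, and the pathway genes lie among the other genes of their level.

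Below the threshold, the genes with the lowest p whose groups did not overlap differed by small amounts. The 11 on the higher side ranged from 0.10 to 0.16 on the log2 scale and the 12 on the lower side from -0.21 to -0.12, with adjusted p of 0.114 to 0.267 (edgeR). Among the higher ones, Srsf5, a splicing factor, stood at 268, 257 and 263 CPM in WT antigen libraries and 286, 282 and 293 with IL-18, and at 264, 265 and 275 against 293, 284 and 306 CPM in knockout. Its difference was 0.13 ± 0.0257. Coro1a, an actin-binding protein of leukocytes, stood at 0.14 ± 0.0305, and Gas5, a non-coding RNA that hosts small nucleolar RNAs, at 0.10 ± 0.0253. The lower ones included Kpna4, an importin that carries proteins into the nucleus, at -0.14 ± 0.0255. Akap9, a centrosomal scaffold, stood at -0.21 ± 0.0411. Lrp1, an endocytic receptor, ran from 1278 to 1392 CPM in WT antigen libraries and from 1195 to 1267 CPM with IL-18. In knockout cultures it ran from 1269 to 1284 and from 997 to 1133 CPM, and its pooled difference was -0.17 ± 0.0351. Parp14, a mono-ADP-ribosyltransferase, also stood at -0.17 (± 0.0349). DESeq2's Wald test called 14 of these 23, 4 higher and 10 lower, and 31 genes in all. It gave Traf3ip3, Btf3l4, Mtif2, Rab24 and Itprip, which are among the 23, no adjusted p and could not call them. The same libraries had served to pick these genes, so its calls are no separate evidence.

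Transcript length differed between the higher and the lower near-threshold genes, with ranges that overlapped slightly. The 11 on the higher side had longest transcripts of 1747 to 3970 bases, with a median of 2741, and the 12 on the lower side 3760 to 14888 bases, with a median of 6696. The same order held over the genes averaging 2 log2 CPM or more. The median IL-18 difference was 0.05 on the log2 scale in the 465 genes under 1000 bases, of which 78.1% were higher. It was -0.07 in the 572 genes over 8000 bases, of which 12.8% were higher. The intermediate classes lay between them in order of length, and both genotypes showed the order, with medians of 0.02 to -0.04 in WT and of 0.07 to -0.10 in knockout. Of the genes over 8000 bases, 189 were lower and 2 higher at an unadjusted p under 0.05.

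The length trend of single libraries was uneven. Relative to the mean of its genotype, log2 CPM fell by 0.0606 per doubling of length in knockout antigen plus IL-18 replicate 1, whereas the other 11 libraries lay between -0.0221 and 0.0244. Without that library 2 genes were called, and Neat1 was among them. In knockout all 3 antigen libraries, at 0.0165 to 0.0244, lay above all 3 with IL-18, at -0.0606 to 0.00887. The WT groups overlapped. Neat1 has a longest transcript of 20771 bases, and it rose although most genes of its length class stood lower. With the length trend removed from each library, an analysis added after the data were seen, the Neat1 difference was 0.35 (adjusted p 0.0211, edgeR). That value rests on the length of 20771 bases and would differ for a shorter transcript. The part of RNA quality in the smaller differences was not tested.

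**Figure D3:**
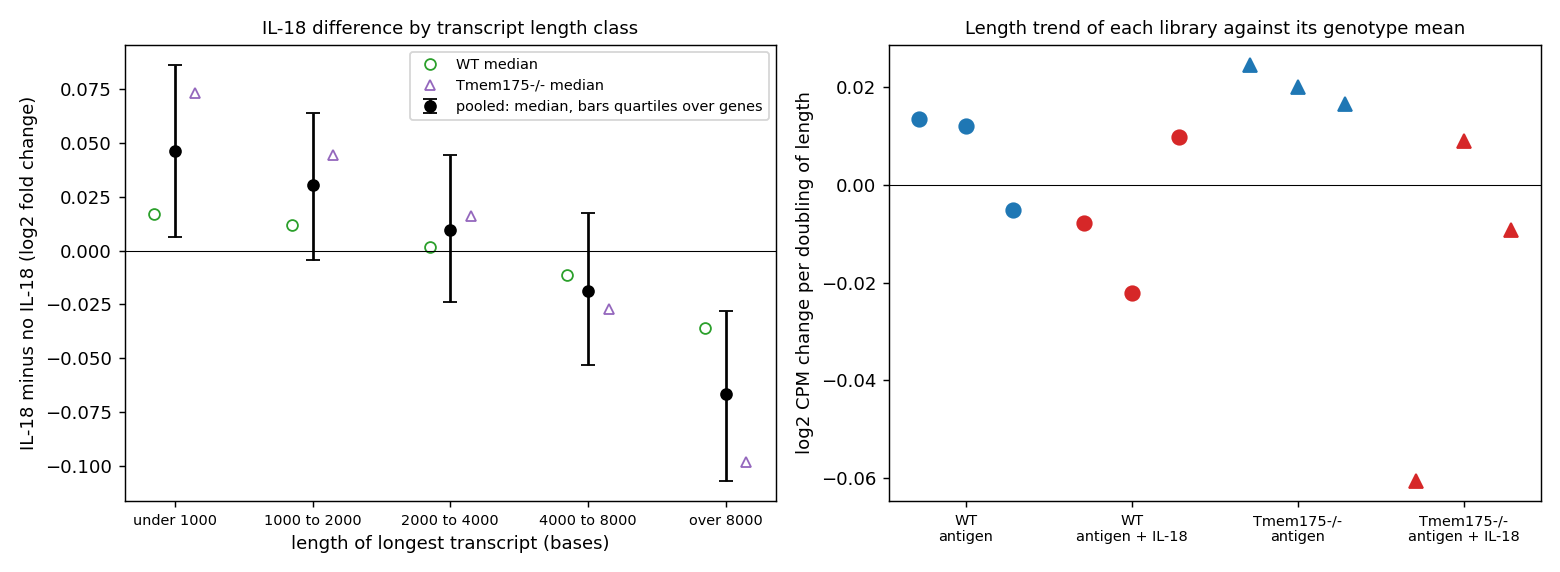
Left, IL-18 difference (log2 fold change) by class of longest transcript length in bases: black, pooled median with quartiles over genes; green circles, WT median; purple triangles, knockout median. Right, change of log2 CPM per doubling of length in each library against its genotype mean, with antigen libraries in blue and antigen plus IL-18 libraries in red; knockout antigen plus IL-18 replicate 1 is lowest, at -0.0606.

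The genes of the IL-18 receptor pathway showed no call. All 21 were tested, 7 stood higher and 14 lower, and their median difference was -0.02 on the log2 scale beside 0.0018 over all genes. The receptor itself was scarce. Il18r1, the ligand-binding chain, stood at 2.21, 1.80 and 2.32 CPM in WT antigen libraries and 2.22, 1.04 and 2.14 with IL-18, and at 2.33, 3.18 and 2.74 against 2.41, 2.58 and 2.39 CPM in knockout. The groups overlapped, and its difference was -0.19 with a 95% interval of -0.53 to 0.15. Il18rap, the accessory chain, stood at 2.94, 4.19 and 4.09 CPM in WT antigen libraries and at 4.91, 4.26 and 5.17 CPM with IL-18. The knockout values were 4.57, 3.87 and 3.97 against 6.07, 4.08 and 4.46 CPM. The WT groups did not overlap and the knockout groups did. Its difference of 0.28 ± 0.111 (0.03 to 0.53) had the lowest p of the list, 0.0203 before and 0.477 after adjustment (edgeR).

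Ligand and antagonist were plentiful beside the receptor. Per kilobase, Il18 averaged 24.4 CPM and Il18bp 71.4, against 0.548 for Il18r1 and 0.896 for Il18rap. Adding the cytokine left the RNA of its own gene at a difference of 0.03 (-0.09 to 0.16) and that of Il18bp at 0.00 (-0.14 to 0.14). The signalling genes were measured closely. Myd88, the adaptor, stood at 0.01 (-0.05 to 0.07), Irak4, the first kinase, at -0.04 (-0.11 to 0.04), and Traf6, the ubiquitin ligase, at -0.06 (-0.14 to 0.02). Nfkb1 and Rela, which encode NF-kB subunits, stood at -0.02 (-0.08 to 0.04) and -0.03 (-0.09 to 0.04). The other 9 genes of the list, from Tab1 at -0.07 to Ikbkb at 0.03, lay in the same narrow span. Irak3, which restrains this pathway, stood at -0.02 (-0.08 to 0.03). Sigirr, an inhibitory receptor, and Il1rap, the accessory chain of the IL-1 receptor, stood at -0.13 (-0.50 to 0.23) and -0.08 (-0.23 to 0.07).

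**Figure D4:**
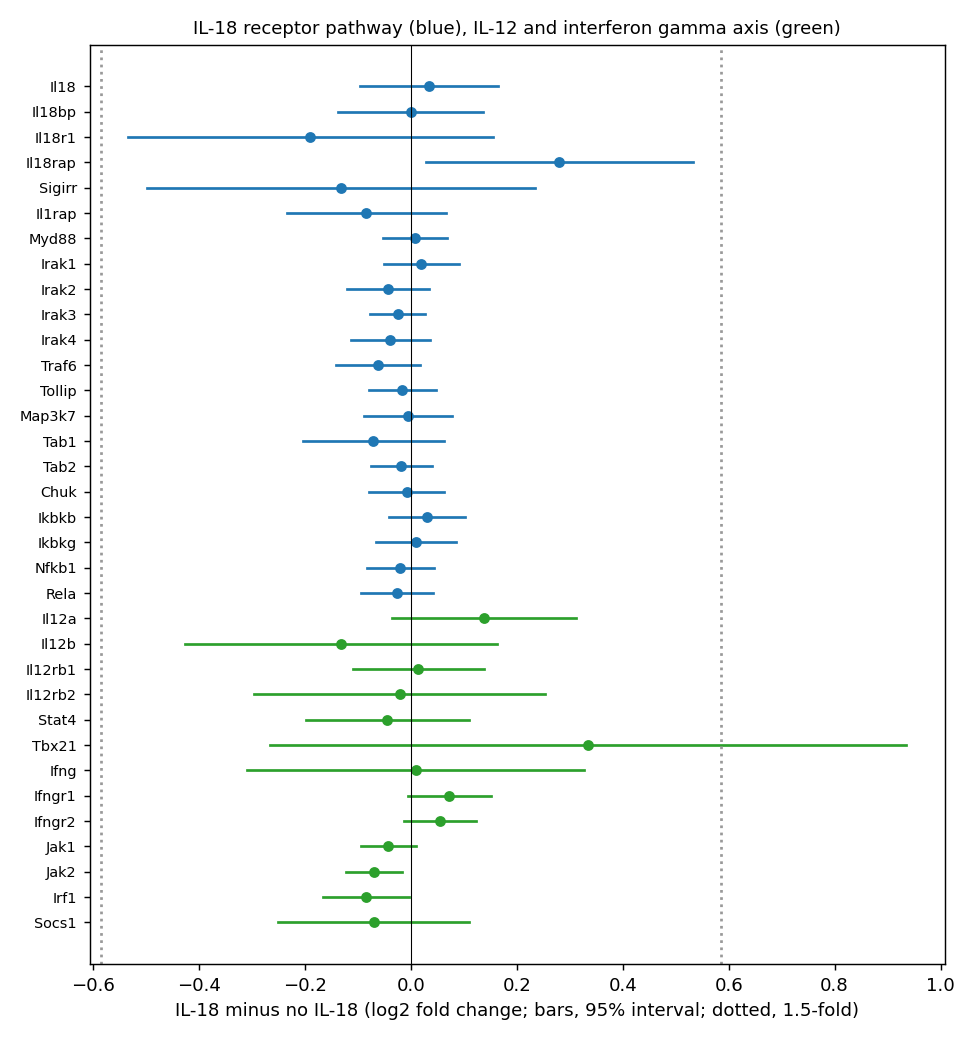
Pooled IL-18 difference (log2 fold change, points) with 95% intervals (lines) of 21 genes of the IL-18 receptor pathway (blue) and genes of the IL-12 and interferon gamma axis (green); dotted lines mark 1.5-fold. The plotted intervals of all but Tbx21 lie within 1.5-fold, and the widest belong to the scarcest genes.

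Interferon gamma, the usual product of IL-18 and IL-12 acting together, was low throughout and no difference was detected. Ifng stood at 2.72, 2.68 and 2.27 CPM in WT antigen libraries and at 2.43, 2.44 and 2.19 CPM with IL-18. In knockout cultures it stood at 2.75, 2.93 and 2.25 against 3.85, 1.99 and 2.75 CPM. The groups overlapped in both genotypes, and the pooled difference was 0.01 with an interval of -0.31 to 0.33. Of the 14 genes of the IL-12 and interferon gamma axis none was called by edgeR, and the median was -0.01. An unadjusted p under 0.05 was found for 3 of the 14, beside 8.76% of all tested genes. DESeq2 called none of the 14 either, but it gave several of them no adjusted p and so could not call them. These were Ifng, Il12a, Il12b, Il12rb1, Il12rb2, Stat4, Tbx21 and Socs1. Il12b and Il12a, the chains of IL-12, stood at -0.13 (-0.43 to 0.16) and 0.14 (-0.04 to 0.31). Il12rb2, the inducible chain of its receptor, stood at -0.02 (-0.30 to 0.25), Stat4 at -0.04 (-0.20 to 0.11) and Tbx21, the T-bet gene, which had 143 counts in all 12 libraries, at 0.33 (-0.27 to 0.94).

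Jak2, a kinase that serves both receptors, stood at 189, 191 and 189 CPM in WT antigen libraries and 177, 181 and 183 CPM with IL-18, and at 146, 144 and 144 against 139, 138 and 138 CPM in knockout. No values overlapped within a genotype, but the difference of -0.07 ± 0.0233 did not pass the threshold (adjusted p 0.397, edgeR). Jak1, whose groups did not overlap either, stood at -0.04. The transcription factor Irf1 stood at -0.08 (-0.16 to -0.00) and the receptor chain Ifngr1 at 0.07 (-0.01 to 0.15). Jak1 and Jak2 were the 2 of 14 genes without overlap, both on the lower side, where the share over all tested genes was 0.773%.

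Other programs gave no called gene by edgeR. The 38 lists, chosen with earlier results of these data known, held 494 distinct tested genes, of which 7.89% had an unadjusted p under 0.05, beside 8.76% of all tested genes. Medians of the 35 lists with at least 5 tested genes ran from -0.09 to 0.09. Among 18 interferon gamma response genes 3 were lower at an unadjusted p under 0.05, beside 4.97% of all tested genes. They were Cd274, which encodes the checkpoint ligand PD-L1, the guanylate-binding protein gene Gbp7 and the immunity-related GTPase gene Irgm2. Their differences were -0.11 ± 0.0333, -0.10 ± 0.0356 and -0.07 ± 0.0307, in that order. Of 24 NF-kB targets Il1b stood at 0.11 ± 0.0354 and Il1a at -0.12 ± 0.0453, with adjusted p of 0.369 and 0.443 (edgeR). Of 13 cytotoxic genes none reached an unadjusted p under 0.05, the lowest being that of Srgn, a granule proteoglycan, at 0.11. Nr4a1, an early target of T cell receptor signals that macrophages also use, stood at 0.29 ± 0.0953, and Fos, an AP-1 subunit, at 0.25 ± 0.0583 (adjusted p 0.391 and 0.267, edgeR). DESeq2's Wald test called 2 of the listed genes in the pooled comparison, Fos at an adjusted p of 0.0148 and Mki67, a marker of cycling cells, at 0.0369.

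Of the metabolic lists, none of which held a call, cholesterol synthesis (9 higher, 10 lower), lipid efflux and storage (8 and 10) and the mitochondrial genome (4 and 5) were evenly split. Of 17 nuclear oxidative phosphorylation genes 16 stood higher and 5 had an unadjusted p under 0.05 on that side, beside 3.79% of all genes, among them the respiratory chain genes Cox6c at 0.08 and Uqcrc1 at 0.09. Their median was 0.05, and their median transcript length was 1916 bases. With the length trend removed the median was 0.03 and 14 stood higher. Of 23 glycolysis and hypoxia genes 21 stood lower, led by the hexokinase Hk2 at -0.11 ± 0.0419. Their median was -0.06 and, with the length trend removed, -0.07. Mki67 stood at -0.22 ± 0.0570 (adjusted p 0.309, edgeR), while 15 of the 24 cell division genes stood higher. Npc1, the lysosomal cholesterol exporter, was the only one of 28 lysosomal genes without overlap in both genotypes, at -0.10 ± 0.0305. Over all tested genes the share without overlap was 0.773% on the lower and 0.537% on the higher side.

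Summed marker levels overlapped between groups in both genotypes for macrophages and T cells, and in neither for monocytes and neutrophils. The summed level of 15 macrophage markers ran from 28440 to 29690 CPM in WT antigen libraries and from 26430 to 29360 CPM with IL-18, and from 18010 to 20870 and 20180 to 21410 CPM in knockout. That of 15 T cell markers ran from 43.0 to 49.6 and 41.2 to 46.9 CPM in WT, and from 34.6 to 39.3 and 35.1 to 40.9 CPM in knockout. These ranges overlapped within each genotype. Cd3e stood at -0.41 and Cd28, a costimulatory receptor, at 0.16, and neither was called (adjusted p 0.548 and 0.567, edgeR). For B cell markers the 3 WT libraries with IL-18, at 48.8 to 51.9 CPM, lay below the 3 without, at 52.5 to 60.1 CPM, and the knockout ranges overlapped. Neutrophil markers summed to 1188 to 1287 CPM in WT antigen libraries and 1112 to 1161 CPM with IL-18, and to 1164 to 1262 and 1310 to 1476 CPM in knockout. Monocyte markers ran from 543 to 606 and 489 to 511 CPM in WT, and from 436 to 457 and 464 to 520 CPM in knockout. Both lists were thus lower with IL-18 in all WT and higher in all knockout libraries. Of the neutrophil markers, DESeq2's Wald test called S100a8 (0.48, adjusted p 0.000114) and S100a9 (0.40, adjusted p 0.000481) higher in knockout. Neither was called by edgeR, and in WT DESeq2 called only Neat1. The natural killer cell list summed to 441 to 465 and 455 to 466 CPM in WT, and to 456 to 519 and 534 to 551 CPM in knockout. In knockout the sum was higher in all 3 libraries with IL-18. Ncr1 and Klrb1c reached at most 0.698 and 0.322 CPM in any of the 12 libraries, so this sum came from other members of the list. Tyrobp, 1 of those members, was called higher in knockout by DESeq2's Wald test, at 0.16 (adjusted p 0.0226). The sum cannot be read as a level of natural killer cells. Dendritic cell markers ran from 325.5 to 331 and 304 to 323 CPM in WT, where they were lower with IL-18, and overlapped in knockout. The part of such cells in the results was not tested.

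The genotypes taken singly gave 1 call each when no replicate block was fitted. In WT it was Neat1, and 526 genes (3.87%) had an unadjusted p under 0.05. In knockout 1575 genes (11.6%) did so, and the called gene was Hivep3, a zinc finger protein that binds kappa B-like motifs. It fell from 48.3, 49.8 and 48.4 CPM to 38.9, 38.8 and 39.4 CPM, a log2 fold change of -0.32 with an adjusted p of 0.0362 (edgeR). In WT it stood at 64.6, 63.3 and 62.2 CPM without and 63.9, 57.6 and 65.1 CPM with IL-18. The test of the difference between genotypes did not call it (-0.29, interval -0.45 to -0.14, adjusted p 0.767). Its knockout call was lost in 7 of 12 analyses that left out 1 library, with adjusted p up to 0.200, and at 0.270 after removal of the length trend. DESeq2, which called 107 genes in knockout, gave it no adjusted p, so it is not among them. Without a replicate block, no gene differed between genotypes in its IL-18 response by edgeR. For this difference 786 genes (5.78%) had an unadjusted p under 0.05, the lowest adjusted p was 0.648, and DESeq2 called 2. With replicate number as a block, edgeR called 2 genes in WT, 361 in knockout and 7 for the genotype difference.

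The genes of MHC class II present antigen to helper T cells. Of 11 such genes 10 stood lower with IL-18 in WT and 11 higher in knockout, and none passed the test of the difference between genotypes. All 11 MHC class II genes stood higher in the pooled comparison, with a median of 0.08, but the median was -0.13 in WT and 0.36 in knockout. Cd74, the invariant chain, stood at 291, 298 and 329.9 CPM in WT antigen libraries and 236, 264 and 266 CPM with IL-18. In knockout cultures it stood at 267, 435 and 429.9 CPM without and at 463, 463 and 527 CPM with IL-18. In neither genotype did the groups overlap, and the directions were opposite. The difference, knockout minus WT, was 0.62 (0.06 to 1.19) with an unadjusted p of 0.0332 and an adjusted p of 0.831 (edgeR). Of the 11 genes 4 had an unadjusted p under 0.05 for this difference, beside 5.78% of all genes. Knockout antigen replicate 1 was the low library, and without it the knockout median of the list was 0.18 and the pooled median -0.02. The medians of WT and knockout had opposite signs in 25 of 38 lists, in 23 of them lower in WT and higher in knockout.

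IL-18 and IL-1β at the same dose were then compared directly, 6 libraries with 6, since both cytokines use Myd88 but bind different receptors. Here 164 of 13565 genes (1.21%) differed, 51 higher with IL-18 (0.376%) and 113 lower (0.833%), by edgeR's quasi-likelihood test, and 2273 (16.8%) had an unadjusted p under 0.05. The count ran from 53 to 641 when single libraries were left out, and 58 of the 164 were also among the 68 called with all 24 libraries in the fit. With replicate number as a block the count was 899, with all 164 among them. Both sides of this comparison share no antigen library, but the IL-18 libraries are those of the comparison above. Most differences were small, with a median fold of 1.13, and 3 genes reached a 2-fold difference. The largest by p was Il22, a cytokine of type 17 and innate lymphoid cells that acts on epithelium. It stood at 4.10, 3.52 and 5.80 CPM in WT and 2.63, 2.62 and 2.62 CPM in knockout cultures with IL-1β, and at 0.755, 0.996 and 1.254 and 0.721, 0.268 and 0.567 CPM with IL-18. No libraries overlapped. The log2 difference was -2.20 ± 0.177, 4.59-fold lower (adjusted p 4.87e-07, edgeR). With antigen alone Il22 stood at 1.36, 0.880 and 1.53 CPM in WT and 0.468, 0.149 and 0.132 CPM in knockout, on the scale of all 24 libraries. Its mean lies under 2 log2 CPM, outside the rule for naming genes, and it was chosen after its values were seen.

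Among 12 matrix metalloproteinase and inhibitor genes 5 were called lower with IL-18 than with IL-1β and none higher, where 0.833% and 0.376% of all genes were. In all 9 stood lower and 3 higher, with a median of -0.13. Mmp13, collagenase-3, stood at 35.4, 33.5 and 33.3 CPM in WT and 39.3, 37.3 and 40.7 CPM in knockout cultures with IL-1β. With IL-18 it stood at 17.3, 22.4 and 23.1 CPM and 23.9, 27.1 and 25.6 CPM. The difference was -0.65 ± 0.0549 (adjusted p 2.55e-06, edgeR). With all 24 libraries in the fit the adjusted p was 0.0599, which ended the call. Mmp8, the neutrophil collagenase, stood at -0.33, Mmp14, a membrane-bound activator of other proteases, at -0.11, and the rare stromelysins Mmp3 and Mmp10 at -2.35 and -1.80. With antigen alone Mmp13 stood at 26.8, 25.4 and 27.0 CPM in WT and 21.7, 27.0 and 26.1 CPM in knockout, between the cytokine groups in WT and overlapping the IL-18 group in knockout.

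Part of the interferon gamma response list was called. Of 18 interferon gamma response genes 5 were called lower, where 0.833% of all genes were, and 17 stood lower in all. Of 20 type I interferon response genes 18 stood lower, with a median of -0.15, and none was called. Cxcl10, a chemokine for activated T cells, was at 16.8, 20.05 and 17.4 CPM in WT and 12.6, 13.2 and 12.4 CPM in knockout cultures with IL-1β, and at 8.56, 13.6 and 11.99 and 9.75, 8.46 and 9.55 CPM with IL-18. The difference was -0.57 ± 0.0903 (adjusted p 0.00932, edgeR). The guanylate-binding protein genes Gbp11, Gbp5 and Gbp7 stood at -0.55, -0.43 and -0.29, the GTPase gene Iigp1 at -0.30, and Cd274 at -0.17, all called. Antigen alone gave Cxcl10 at 13.7, 13.5 and 10.9 CPM in WT and 10.2, 8.80 and 8.20 CPM in knockout, on the scale of all 24 libraries. These values overlapped the IL-18 values in both genotypes, as did those of Gbp11. Gbp7 with antigen alone lay above the IL-18 libraries in WT and overlapped them in knockout, and Cd274 did the reverse. BC023105, a gene whose role is not described here, was also among the 5 lowest named by rule, at -0.54. With all 24 libraries in the fit, Cxcl10, Gbp11, BC023105 and Cd274 lost their calls, at adjusted p of 0.191, 0.112, 0.0770 and 0.526 (edgeR). Of the axis that leads to interferon gamma, the IL-12 receptor chain Il12rb1 (-0.27), Jak2 (-0.15) and the inhibitor Socs1 (-0.45) were lower. Ifng itself stood at -0.35 (-0.73 to 0.04) and was not called (adjusted p 0.318, edgeR).

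Il1a, which encodes the other agonist of the IL-1 receptor, was lower in every IL-18 library than in any IL-1β library of its genotype. It stood at 65.2, 64.1 and 59.6 CPM in WT and 44.3, 40.5 and 43.2 CPM in knockout with IL-1β, and at 37.3, 46.9 and 41.5 and 31.8, 34.1 and 31.8 CPM with IL-18. The difference was -0.50 ± 0.0523 (adjusted p 0.000118, edgeR), and its adjusted p stayed at or under 0.00147 in all alternatives. Antigen alone gave 47.9, 43.9 and 45.5 CPM in WT and 34.9, 36.4 and 35.3 CPM in knockout, overlapping the IL-18 values in WT and lying above them in knockout. Also lower were the inflammasome sensor Nlrp3 (-0.13), the NF-kB inhibitor Tnfaip3 (-0.15), the itaconate enzyme Acod1 (-0.14) and the costimulator Cd86 (-0.15). Csf2rb, the shared receptor chain for GM-CSF, IL-3 and IL-5, the sialomucin Cd164 and Malt1, a signalling protease, stood at -0.24, -0.29 and -0.23 and kept their calls in all alternatives. These 3 were chosen after their values were seen.

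The start-site regions of the 3 genes with called differences that lie in the rule for named genes and in the promoter table are printed because AP-1, NF-kB and interferon regulatory factors are the known routes from these cytokines to such genes. They are the 250 bases before the annotated start, from RefSeq on GRCm38.p6, 5′ to 3′ on the gene's strand, at chr9:7272264-7272513 (plus strand) for Mmp13, chr5:92348890-92349139 (minus strand) for Cxcl10 and chr2:129309973-129310222 (minus strand) for Il1a. Capitals mark matches, on either strand, to the consensus NF-kB motif, the AP-1 motif TGANTCA and the interferon-stimulated response element. No match overlapped another.
Mmp13: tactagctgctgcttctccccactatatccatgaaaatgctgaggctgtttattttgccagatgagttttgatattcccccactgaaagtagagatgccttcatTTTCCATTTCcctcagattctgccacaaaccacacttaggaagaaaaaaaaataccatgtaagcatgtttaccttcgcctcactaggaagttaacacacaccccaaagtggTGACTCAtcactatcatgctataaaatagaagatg
Cxcl10: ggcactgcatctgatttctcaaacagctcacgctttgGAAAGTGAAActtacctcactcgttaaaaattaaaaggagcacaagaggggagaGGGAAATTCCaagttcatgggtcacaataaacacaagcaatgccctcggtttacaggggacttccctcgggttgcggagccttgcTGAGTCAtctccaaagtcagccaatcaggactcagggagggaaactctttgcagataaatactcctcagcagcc
Il1a: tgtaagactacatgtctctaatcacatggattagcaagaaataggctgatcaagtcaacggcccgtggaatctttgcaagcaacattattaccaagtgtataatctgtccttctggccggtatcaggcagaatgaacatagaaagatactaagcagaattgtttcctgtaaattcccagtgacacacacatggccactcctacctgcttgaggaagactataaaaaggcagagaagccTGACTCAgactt
All 3 hold an AP-1 match, which begins 35 bases before the start in Mmp13, 74 in Cxcl10 and 12 in Il1a. Cxcl10 also holds an NF-kB match 159 bases and an interferon-stimulated element 213 bases before the start, and Mmp13 holds the latter on the other strand, TTTCCATTTC, at 146 bases. Of 32851 RefSeq promoter windows of this length, 6.75% hold an AP-1 match, 1.21% an NF-kB match and 2.98% an interferon-stimulated element. The gamma-activated site was also searched and had no match in these 3 windows, where 7.02% of all windows hold one. The window of Il22 held no match to any of the 4 motifs. A match describes the letters and not binding, and a missing match says only that these letters are not in this window.

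**Figure D5:**
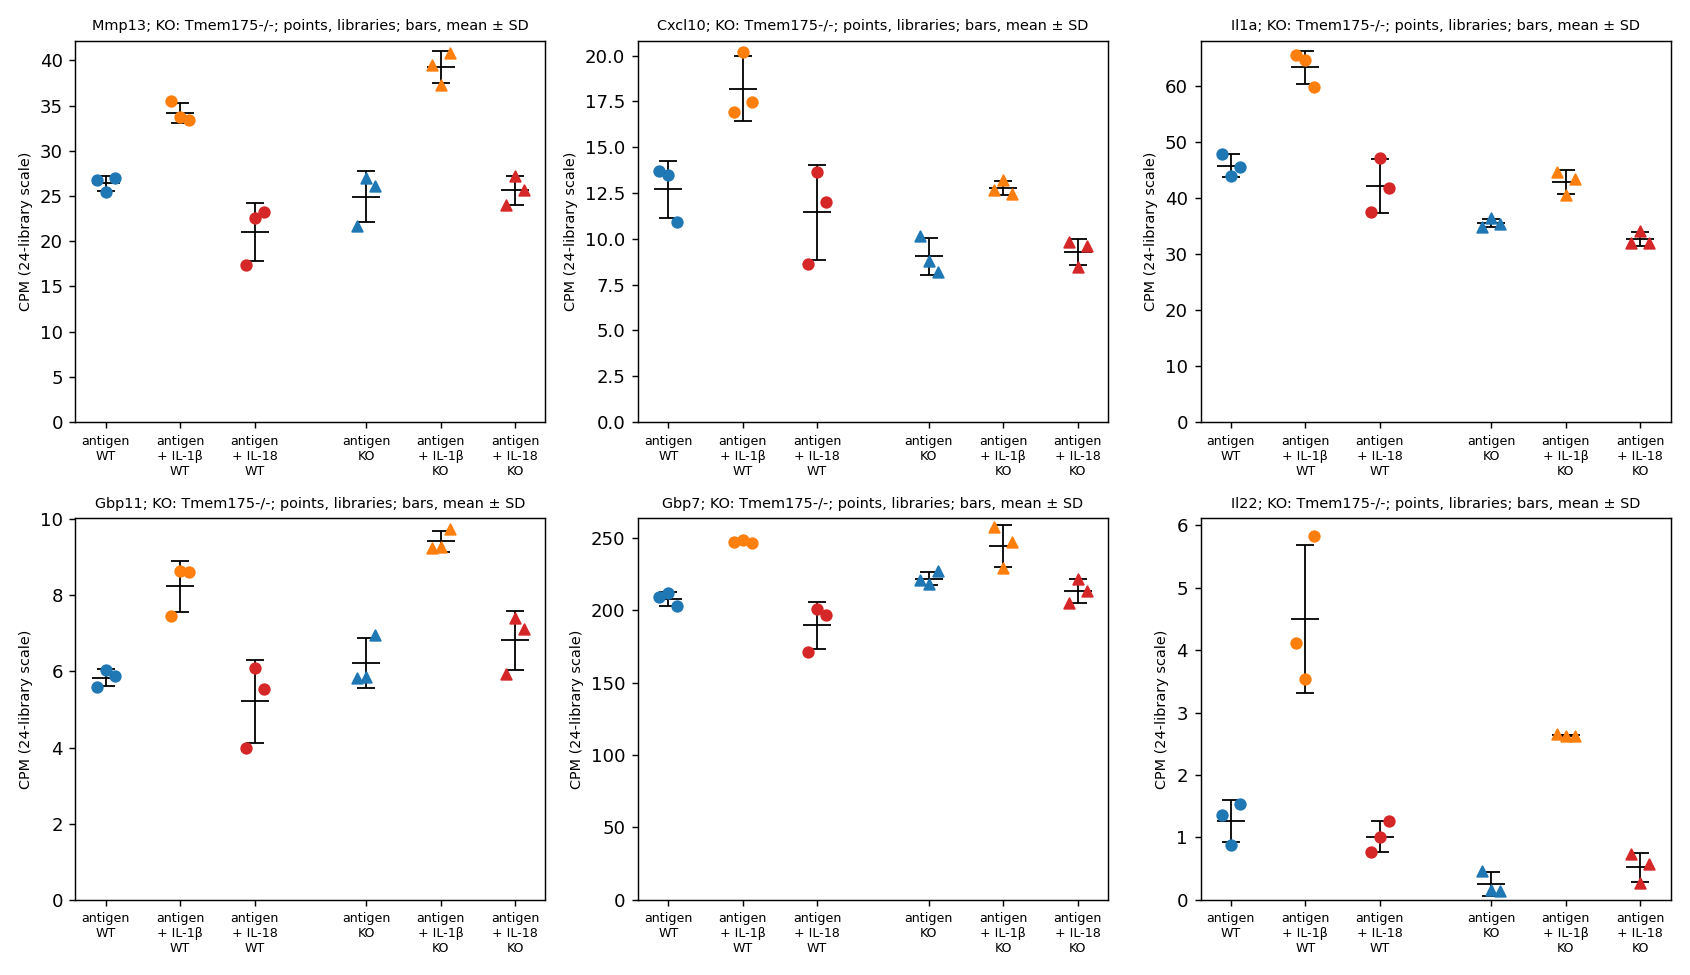
CPM on the scale of all 24 libraries of Mmp13, Cxcl10, Il1a, Gbp11, Gbp7 and Il22 in cultures with antigen (blue), antigen plus IL-1β (orange) and antigen plus IL-18 (red); circles are WT and triangles knockout libraries, bars the mean ± SD of 3. In each genotype the IL-1β libraries lie above the IL-18 libraries for all 6 genes.

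Genes higher with IL-18 than with IL-1β differed by less. The 5 highest named by rule were Sez6l2, a neuronal membrane protein gene (0.42), the serine protease gene Prss46 (0.40), the prokineticin receptor Prokr1 (0.31), the zinc finger gene Zfp628 (0.31) and the deubiquitinase gene Josd2 (0.31). Prss46 stood at 7.69, 8.16 and 8.26 CPM in WT and 11.5, 11.6 and 11.9 CPM in knockout with IL-1β, and at 11.2, 8.71 and 11.5 and 17.2, 13.6 and 15.9 CPM with IL-18. Its groups did not overlap, and it alone of the 5 kept its call in every edgeR alternative (adjusted p 0.00929, at most 0.0282). DESeq2 gave these 5 genes no adjusted p. Antigen alone gave 10.8, 11.3 and 10.9 CPM in WT and 16.4, 15.8 and 16.98 CPM in knockout, within the range of the IL-18 libraries of each genotype. Gzmc, a granzyme of cytotoxic lymphocytes, was higher at 0.53 ± 0.105 (adjusted p 0.0155, edgeR), and Apoe, the lipid carrier, at 0.12 ± 0.0271 (adjusted p 0.0276, edgeR). Of 23 glycolysis and hypoxia genes all stood higher with a median of 0.06, and none was called. None of the 21 IL-18 receptor pathway genes was called, and their median was 0.02.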

How the data were processed

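The authors deposited 1 table of raw read counts per gene, whole numbers for 24 libraries, without normalization. Per the submitters' processing notes, fastp and the build GRCm39 were used; the aligner, counter and annotation are not given in the sources used here. Groups came from the sample titles. Members and gene lists were chosen with earlier results of these data known.

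The deposited counts of 12 libraries were fitted in R 4.3.3 with edgeR 4.0.16 (genes kept by filterByExpr, TMM scaling, robust quasi-likelihood fit) with genotype and IL-18 as terms, which left 9 residual degrees of freedom. Genotypes were tested singly, and against each other, with 1 coefficient per group (8 degrees of freedom). IL-18 was compared with IL-1β in a second fit of 12 libraries and 13565 genes. Calls had a Benjamini-Hochberg adjusted p under 0.05, and 95% intervals used the t quantile at the residual degrees of freedom, which is wider than the moderated test. Values in CPM are scaled by TMM within the libraries named. Longest transcript lengths came from GENCODE annotation on GRCm38, matched by Ensembl identifier for 13570 tested genes.

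Genes were named by rule. For the pooled effect these were the 12 highest and 12 lowest called genes averaging 2 log2 CPM or more whose groups did not overlap, filled up by lowest p. Genes of the 2 IL-18 lists (1 is not reported here), up to 4 of every other list, and the 5 highest and 5 lowest called against IL-1β followed. Alternatives were DESeq2 1.42.0, its size factors, no count filter, all 24 libraries, a replicate block, each library left out, and, added after the data were seen, removal of a length trend. DESeq2 gave some tested genes no adjusted p and could not call those. Counts were simulated for the pooled comparison of 13588 genes, with 50 genes planted at each fold and no genotype effect or length trend. Of genes planted at 1.1-fold 16% were found, 36% at 1.2-fold, 72% at 1.5-fold and 88% at 2-fold, and 7.83% of calls were false. The adjusted threshold is stricter when fewer genes differ, so these rates describe the simulation and can overstate detection in the data, where 1 gene was called.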

Additional observations from a re-analysis of the deposited data

How the results depend on the processing

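No called value changed sign. Of the genes in the 2 IL-18 lists, all uncalled, 10 took both signs across alternatives (Ifng from -0.12 to 0.09), and without knockout antigen 1 the pooled medians of the MHC class II and macrophage lists were -0.02 and -0.01 in place of 0.08 and 0.02. The pooled count of 1 became 31 with DESeq2, 112 without a count filter, 7 with all 24 libraries and 2 with the length trend removed, and Neat1 was called each time. The WT count of 1 became 8, 0 and 0 without a filter, with all 24 libraries and with the length trend removed. The knockout count of 1 became 107 with DESeq2, 316 without a filter, 30 with all 24 libraries and 0 with the length trend removed. The count of 0 for the genotype difference became 2 with DESeq2 and 34 without a filter. The 164 genes against IL-1β became 362 with DESeq2, 657 without a filter, 68 with all 24 libraries and 254 with the length trend removed. The causes were not tested. Leaving out single libraries gave 1 to 2 pooled calls (2 without WT antigen 2, knockout antigen 1, or knockout antigen plus IL-18 1 or 2) and 0 to 2 in WT (0 without WT antigen 1 or 3 or WT antigen plus IL-18 2, and 2 without WT antigen plus IL-18 1). It gave 0 to 58 in knockout: 58 without knockout antigen 2, 47 without knockout antigen plus IL-18 2, 2 without WT antigen 2, and 0 without WT antigen 1 or 3, WT antigen plus IL-18 1, knockout antigen 1 or 3, or knockout antigen plus IL-18 1 or 3. The genotype difference gave 0 to 1 (1 without WT antigen 2). Against IL-1β it gave 53 to 641: for IL-18, 69 and 80 without WT 1 and 3, 641 and 79 without knockout 2 and 3, and for IL-1β, 71, 53 and 83 without WT 1, 2 and 3, and 321 and 89 without knockout 1 and 3. In their deviations from group means, same-numbered samples correlated at 0.00537 to 0.224 (18 pairs). Of 12 libraries 12 correlated best with their own number, a hint from the data. The labels do not say what the number stands for, so whether same-numbered samples were handled together is not known. With a replicate block the counts were 4 pooled (2 with the number within genotype), 2 in WT, 361 in knockout, 7 for the genotype difference and 899 against IL-1β. Intervals within 1.2-fold were found for 64.4% of all tested genes and for 87.2% of those averaging 2 log2 CPM or more.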
